A study of Mus musculus with 12 samples.

Results

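Chemokines are small secreted proteins that direct the movement of leukocytes, and chemokine receptors are the G protein-coupled receptors through which leukocytes sense them. The ligands are divided by the spacing of their first cysteines into the CC, CXC, CX3C and C families, and each receptor is named for the ligand family it binds. In the liver, Kupffer cells, sinusoidal endothelial cells, stellate cells and infiltrating leukocytes can all make chemokines, and receptors such as CCR2, CXCR2, CXCR3 and CXCR6 are used by monocytes, neutrophils, T cells and NKT cells that enter the organ. Genes were taken as members when their symbol was Ccl, Ccr, Cxcl or Cxcr followed by a number and, in some genes, a letter, or was Cx3cl1, Cx3cr1 or Xcl1, and Cxcl13 was left out. Of the 40840 genes in the files, 55 matched, and 36 of these (21 ligands and 15 receptors) were above the lowest value of the files in 3 or more of 11 libraries and are described here. The other 19 matching genes did not reach that limit.

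The RNA came from the immune cell fraction of livers of male mice that were wild-type (WT) or deficient in caspase-11 (Casp11-/-). The WT strain is C57BL/6 in the labels and C57BL/6J in the study's methods, and the Casp11-/- strain is B6.129S4(D2)-Casp4tm1Yuan/J. Mice started the diets when they were 8 to 10 weeks old and then received normal chow diet (NCD) or high-fat diet (HFD) for 12 weeks. Each genotype was studied on each diet, which gave 4 groups of 3 libraries, numbered by mouse. Groups are written as genotype and diet, as in WT-HFD. The study asked how HFD and caspase-11 deficiency change the liver immune cells in fatty liver disease. Values are TPM, the share of a library that a gene takes once reads are divided by gene length, so levels of different genes can be set side by side. All files bottom out at 1.01 TPM, and a gene at this value is called at the minimum. Read numbers per gene are not given, so the depth of a value is unknown.

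The libraries differed in ways that touch every value below. WT-NCD replicate 3 listed 39677 genes above the minimum against 12940 to 18775 in the others, and all 36 members lay between 1.86 and 26.4 TPM in it. It was therefore left out of the comparisons, which rest on 11 libraries with n = 2 for WT-NCD, and results with all 12 are given beside them. U3 small nucleolar RNA took 1.24% to 4.84% of the TPM in the 5 NCD libraries and 25.8% to 58.5% in the 6 HFD libraries. Across the genes tested, the median log2 fold change between diets was -0.39. After the protein-coding genes of each library were rescaled to a common total, that median was 0.02, and results on this scale are given as well. Casp4, which encodes caspase-11, was at 5.60 to 15.6 TPM in the 5 WT libraries fitted and at 2.56 to 15.2 TPM in the 6 libraries labelled Casp11-/-, and Casp11-/- NCD replicate 3 (15.2 TPM) and Casp11-/- HFD replicate 2 (8.68 TPM) lay within the WT range, so the genotype is given as labelled. The labels name the cells hepatic macrophages, but summed TPM of 5 B cell markers (396 to 1492) was above that of 8 Kupffer cell markers (33.3 to 103) in the 5 NCD libraries. The summed TPM of 6 hepatocyte markers, albumin among them, was 5906 to 22037 in NCD and 8099 to 16525 in HFD, above the sum of every immune marker list in each library, and 0 of the 6 were called between the diets. The RNA is therefore of mixed origin and holds much hepatocyte RNA. In such RNA, fewer cells of a type and less RNA per cell cannot be told apart.

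The families can be read in the coding sequence. The stretches below, from GENCODE vM21 on GRCm38 (mm10), belong to ligands of each family among the members. The capitals mark the cysteine codons that give the family its name.
Ccl5: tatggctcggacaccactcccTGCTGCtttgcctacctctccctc
Ccl3: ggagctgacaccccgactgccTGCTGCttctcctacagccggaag
Cxcl9: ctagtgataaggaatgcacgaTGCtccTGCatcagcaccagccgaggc
Cxcl2: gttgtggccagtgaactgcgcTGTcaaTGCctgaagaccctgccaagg
Cx3cl1: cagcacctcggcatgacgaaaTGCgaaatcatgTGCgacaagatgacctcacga
Xcl1: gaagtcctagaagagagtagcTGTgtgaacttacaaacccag
The Ccl5 stretch spans exons 1 and 2 (chr11:83529224-83530386, reverse strand), and that of Ccl3 lies in exon 2 (chr11:83648634-83648678, reverse strand). Those of Cxcl9 (chr5:92326824-92326871, reverse strand), Cxcl2 (chr5:90904121-90904168, forward strand), Cx3cl1 (chr8:94778030-94778083, forward strand) and Xcl1 (chr1:164932957-164932998, reverse strand) also lie in exon 2. The cysteine codons are adjacent in the CC ligands, separated by 1 codon in the CXC ligands and by 3 codons in Cx3cl1, and Xcl1 has a single cysteine there.

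Diet was the comparison with the most calls. HFD was compared with NCD, averaged over both genotypes, with limma on log2(TPM + 1), and p-values were adjusted over all 17950 genes tested. Among the 36 members, Ccl24 rose and 10 fell at an adjusted p under 0.05, namely Cxcr5, Ccr7, Ccl5, Ccr6, Cxcr4, Ccl9, Ccl3, Ccr10, Ccl4 and Ccl17. Over all genes tested, 1.07% were called higher and 17.3% lower, so the 10 members that fell stand beside a large share of genes called lower. The median log2 fold change was -0.32 over the members, -0.39 over all genes and -0.60 over the protein-coding genes tested. Of the 15 receptors, 5 fell and 0 rose, and of the 21 ligands, 5 fell and 1 rose. After the protein-coding genes were rescaled, 0 members were called higher and 6 lower (Cxcr5, Ccr7, Ccl5, Ccr6, Ccr10 and Ccl17), against 2.43% of all genes called higher and 3.21% called lower. Ccr10 and Ccl17 had most of their rescaled values at the common minimum, so their calls depend on it. Ccr10 also passed the filter only through NCD libraries, and Ccl24 passed it only through HFD libraries. Rescaling turned the sign of 6 members, none of them among the 11 called. With all 12 libraries, limma called 0 members at an adjusted p under 0.05, against 0.554% of all genes. At an unadjusted p under 0.05 there were 7 members (1 higher, 6 lower) and 3282 of 19498 genes (326 higher, 2956 lower).

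**Figure D1:**
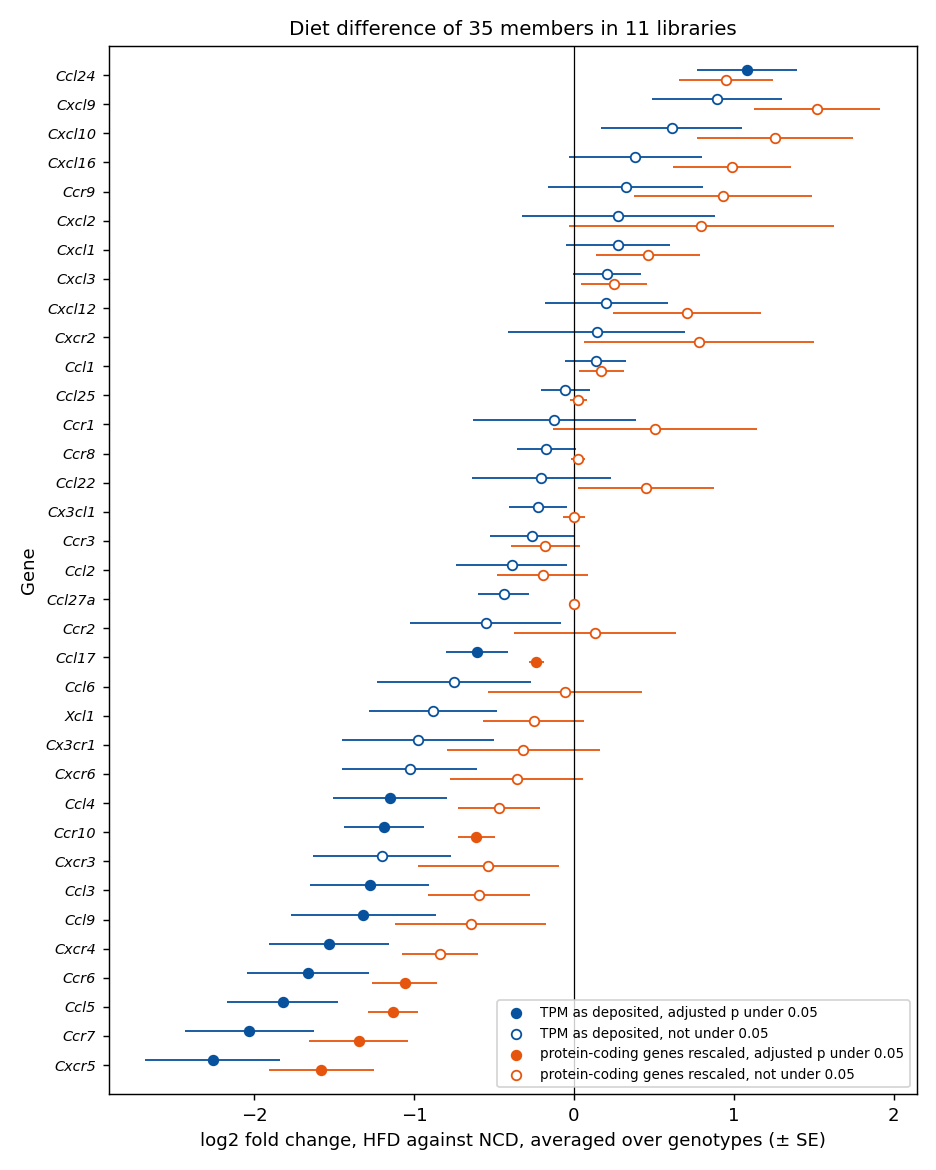
Log2 fold change of HFD against NCD averaged over both genotypes (x axis, with SE) for 35 members (y axis), in 11 libraries, from TPM as deposited (blue) and after the protein-coding genes were rescaled (orange). Filled points have an adjusted p under 0.05: 11 members in blue and 6 in orange, and the orange point of most members lies to the right of the blue one.

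The falls of Cxcr5 and Ccr7, receptors of the lymphoid homing axes, were the largest among the members called. Cxcr5 (chr9:44511787-44561877) encodes the receptor for CXCL13 that brings B cells and follicular helper T cells into follicles. WT-NCD replicates 1 and 2 had 87.8 and 70.4 TPM of it, and WT-HFD had 20.01, 10.8 and 29.1 TPM. With the Casp11-/- label, it stood at 153, 29.9 and 162 TPM on NCD and at 14.4, 11.6 and 21.6 TPM on HFD. Every HFD library was thus below every NCD library, though Casp11-/- NCD replicate 2 came close to the HFD range. The log2 fold change averaged over genotypes was -2.26 ± 0.42 (SE, adjusted p = 0.00114), and it was -1.58 ± 0.33 after rescaling (adjusted p = 0.0356). On the rescaled values it was called in 3 of the 11 fits that left out a library.

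Ccr7 (chr11:99144196-99155077) encodes the receptor for CCL19 and CCL21 that guides naive T cells, B cells and mature dendritic cells to lymphoid tissue. Its level was 98.1 and 108 TPM in WT-NCD, then 25.7, 16.3 and 38.8 TPM in WT-HFD, 129, 37.9 and 127 TPM in Casp11-/- NCD and 12.7, 14.4 and 40.2 TPM in Casp11-/- HFD. The diets overlapped, since Casp11-/- NCD replicate 2 was below 2 HFD libraries. Ccr7 fell by 2.03 on the log2 scale (SE 0.41, adjusted p = 0.00229). The ligands of CCR7 were hardly seen: Ccl19 was at the minimum in all 11 libraries, and Ccl21a was above it in 1.

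Ccr6 (chr17:8236043-8257141), the receptor for CCL20 on B cells and Th17 cells, had a lower level but a like order of libraries. It was at 12.9 and 13.3 TPM in WT-NCD, at 5.17, 2.23 and 4.71 TPM in WT-HFD, at 20.1, 5.08 and 14.2 TPM in Casp11-/- NCD and at 2.09, 2.58 and 3.33 TPM in Casp11-/- HFD. The NCD libraries were all above the HFD libraries except Casp11-/- NCD replicate 2, which fell just below WT-HFD replicate 1. Ccr6 fell by 1.66 on the log2 scale (SE 0.38, adjusted p = 0.00737). Ccl20, its ligand, was at the minimum in all 11 libraries.

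Cxcr4 (chr1:128588199-128592293) encodes the receptor for CXCL12, which retains leukocytes in bone marrow and is carried by most of them. At a median of 109.5 TPM over the 11 libraries it was the member with the highest level. It was at 221 and 273 TPM on NCD in WT and at 54.3, 68.3 and 134 TPM on HFD in WT. With the Casp11-/- label the values were 209.9, 109.5 and 259 TPM on NCD and 45.8, 69.8 and 90.5 TPM on HFD. WT-HFD replicate 3 was above Casp11-/- NCD replicate 2, so the diets overlapped. Cxcr4 fell by 1.53 on the log2 scale (SE 0.38, adjusted p = 0.0124), and with rescaling the change was -0.84 ± 0.24 and was not called (adjusted p = 0.0818). Its ligand Cxcl12, a product of stromal and endothelial cells, was between 2.41 and 12.6 TPM with no order by diet (log2 fold change 0.20 ± 0.39, adjusted p = 0.67).

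Ccr10 and Ccl17 were called from values close to the minimum. Ccr10, the receptor for CCL27 and CCL28 on skin-homing and mucosal lymphocytes, had 6.29 and 6.40 TPM in WT-NCD, 4.72 TPM in Casp11-/- NCD replicate 1, and was at the minimum in the other 8 libraries. It entered the test only through the group in which it was high, and its fitted log2 fold change of -1.19 ± 0.25 (adjusted p = 0.00368) depends on the minimum and on the pseudocount. Ccl17, a ligand of CCR4 made by dendritic cells, had 3.92 and 4.57 TPM in WT-NCD and no more than 2.20 TPM in the other 9 libraries, with 4 of them at the minimum. The fall of Ccl17 was by 0.61 on the log2 scale (SE 0.20, adjusted p = 0.0366). With 1 library left out, limma called Ccl17 only without Casp11-/- NCD replicate 2 (adjusted p = 0.00796) or WT-HFD replicate 3 (adjusted p = 0.023). The receptor Ccr4 was above the minimum in only 2 of the 11 libraries, and Ccl22, its other ligand, was between 3.55 and 31.7 TPM in both diets (log2 fold change -0.20 ± 0.43, adjusted p = 0.70).

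**Figure D2:**
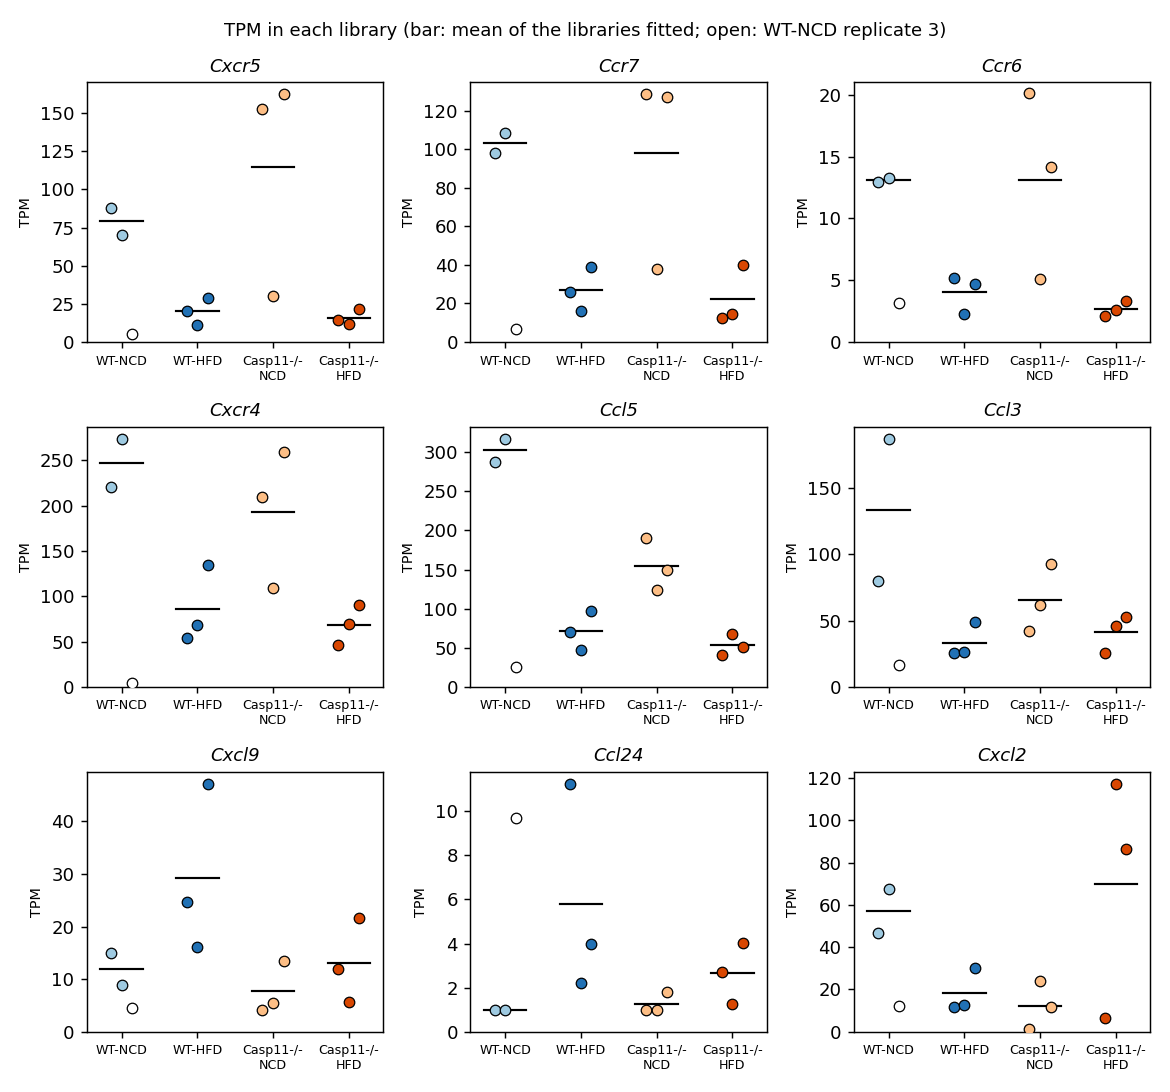
TPM (y axis, from 0) of 9 members in each library of the 4 groups (x axis). Filled points are the 11 libraries fitted, bars are their group means, and the open point is WT-NCD replicate 3. The Cxcr5 and Ccl5 points of both HFD groups lie below all filled NCD points, whereas Cxcl2 is high in WT-NCD and in 2 of the 3 libraries labelled Casp11-/- HFD.

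The B cell markers fell with these receptors. All 5 passed the test for lower levels on HFD, 4 of 5 after rescaling and 0 with all 12 libraries. The summed TPM of the 5 (Cd79a, Cd79b, Ms4a1, Pax5 and Cd22) was 396 to 1492 in NCD and 123 to 275 in HFD, and 0 of the 5 had a higher mean on HFD. On the rescaled values the sums were 436 to 966 and 172 to 276. Relative to this sum, Cxcr5 was 5.99% to 10.9% in NCD and 7.05% to 10.6% in HFD. The mean log2 difference of that ratio between diets was 0.17 (exact permutation test within genotypes, 200 arrangements, two-sided p = 0.38). A p of this size does not show that the ratio was unchanged. Cxcr5 itself differed by -2.33 on log2 TPM. The ratio does not depend on the scaling of a library, and the 2 diets overlapped in it. For Ccr7 the ratio was 7.65% to 9.57% in NCD and 8.16% to 15.6% in HFD (exact permutation p = 0.065). The log2 ratios of Ccr6 and Cxcr4 to the same sum differed by 0.54 and 0.95 (exact permutation p = 0.02 for each), and neither passed adjustment. Over the 19 pairs of a member and a marker list that were tried, which were chosen after the values were seen, the smallest adjusted p was 0.0633, and 0.005 is the smallest p these arrangements allow.

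Of the 5 inflammatory CC ligands Ccl3, Ccl4, Ccl5, Ccl6 and Ccl9, 4 fell, and all but Ccl9 had a higher median level than any other ligand. Ccl5, Ccl9, Ccl6, Ccl3 and Ccl4 lie within 1 cluster on chromosome 11, from 83525778 at Ccl5 to 83664683 at Ccl4 (GRCm38). Ccl5, known as RANTES and made by T and NK cells, was at 288 and 317 TPM on NCD in WT and at 70.5, 47.4 and 97.4 TPM on HFD in WT. It was at 191, 124 and 149 TPM in Casp11-/- NCD and at 41.1, 67.6 and 51.2 TPM in Casp11-/- HFD. On TPM as deposited, all HFD libraries were below all NCD libraries, with a gap between 97.4 and 124 TPM. On the rescaled values the diets overlapped, since Casp11-/- NCD replicate 3 (84.6) was below WT-HFD replicate 3 (94.6). Ccl5 fell by 1.82 on the log2 scale (SE 0.35, adjusted p = 0.0014) and by 1.13 after rescaling (SE 0.16, adjusted p = 0.0138). It was called in 9 of the 11 rescaled fits that left out a library, against 5 for Ccr6, 3 each for Cxcr5, Ccr10 and Ccl17 and 2 for Ccr7, and it was not called there without either WT-NCD replicate 1 or 2.

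On TPM as deposited, only 3 members had NCD and HFD libraries that did not overlap, and in all 3 (Ccl5, Cxcr5 and Ccl27a) HFD was lower. Over all genes tested on that scale, 5.6% had all HFD libraries below all NCD libraries and 0.39% had them above. On the rescaled values the set of members differed, and the share of all genes was not counted there. Cxcr5 stayed apart, Ccl5 overlapped, and Ccl27a was at the common minimum in all 11 libraries. Ccr6 came apart there, with NCD libraries at 5.60 or more and HFD libraries at 5.17 or less. Ccl27a, a CCR10 ligand, was at 1.26 to 2.70 TPM in NCD and at 1.01 to 1.06 TPM in HFD, so its separation rests on values at the minimum. Its log2 fold change of -0.44 ± 0.16 missed the threshold (adjusted p = 0.055), and Ccl27a has near-identical copies among which reads may be shared.

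Ccl3 and Ccl4, which encode MIP-1α and MIP-1β and are made by activated macrophages, NK cells and T cells, moved side by side. Ccl3 was at 79.6 and 187 TPM in WT-NCD, at 25.3, 26.0 and 48.8 TPM in WT-HFD, at 41.8, 61.9 and 92.4 TPM in Casp11-/- NCD and at 25.2, 46.1 and 52.5 TPM in Casp11-/- HFD. Ccl4 was at 92.1 and 161 TPM, at 33.7, 29.1 and 55.9 TPM, at 39.3, 54.8 and 74.1 TPM and at 23.0, 45.5 and 38.6 TPM in the same order. WT-NCD replicate 2 was the highest library for both genes, and the diets overlapped. Their log2 fold changes were -1.28 ± 0.37 (SE, adjusted p = 0.0264) and -1.15 ± 0.35 (SE, adjusted p = 0.0317), and neither was called after rescaling. Without WT-NCD replicate 2 limma called neither (adjusted p = 0.210 for Ccl3 and 0.214 for Ccl4). Both also lost the call without some other single libraries.

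Ccl9 and Ccl6 are related ligands of CCR1 made by myeloid cells. Ccl9 was at 22.1 and 92.8 TPM on NCD in WT and at 11.9, 17.99 and 24.4 TPM on HFD in WT. With the Casp11-/- label the values were 36.1, 13.5 and 59.96 TPM on NCD and 6.61, 27.7 and 9.22 TPM on HFD. It fell by 1.31 on the log2 scale (SE 0.45, adjusted p = 0.045) and was not called after rescaling. Without WT-NCD replicate 2 limma did not call Ccl9 (adjusted p = 0.313), and it also lost the call without some other single libraries. Ccl6 was at 79.8 and 219 TPM in WT-NCD, at 73.6, 53.6 and 88.3 TPM in WT-HFD, at 174, 32.7 and 223 TPM in Casp11-/- NCD and at 45.9, 179 and 44.6 TPM in Casp11-/- HFD. Replicates within a group spanned up to 6.82-fold for Ccl6, and its log2 fold change of -0.75 ± 0.48 was not called (adjusted p = 0.24).

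Ccr1, a receptor for several of these ligands carried by monocytes and neutrophils, was not called (log2 fold change -0.12 ± 0.51, adjusted p = 0.85). It was between 4.24 and 13.6 TPM in 9 libraries and reached 41.2 TPM in WT-NCD replicate 2 and 64.0 TPM in Casp11-/- HFD replicate 2.

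NK cell markers moved with these ligands, and 5 of 6 passed the test for lower levels on HFD, with 2 of 6 after rescaling and 0 with all 12 libraries. The summed TPM of 6 NK cell markers was 185 to 374 in NCD and 53.7 to 100.4 in HFD, and on the rescaled values 106 to 238 and 69.4 to 99.7, with 0 of 6 markers higher on average on HFD. Ccl5 was 58.1% to 108% of that sum in NCD and 56.2% to 97.0% in HFD. The log2 ratio differed by -0.20 (exact permutation test, p = 0.275), which does not show that it was unchanged. For Ccl3 and Ccl4 the log2 ratio was 0.34 and 0.47 higher on HFD (exact permutation p = 0.27 and 0.055). Xcl1, the C-family ligand made by NK and CD8 T cells that attracts cross-presenting dendritic cells, was between 3.65 and 31.6 TPM, with a log2 fold change of -0.88 ± 0.40 (adjusted p = 0.11). T cell markers summed to 129 to 572 TPM in NCD and 79.1 to 231 TPM in HFD, and 0 of 7 had a higher mean on HFD. How far the number of B, NK or T cells in the fraction contributed to these differences was not tested.

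**Figure D3:**
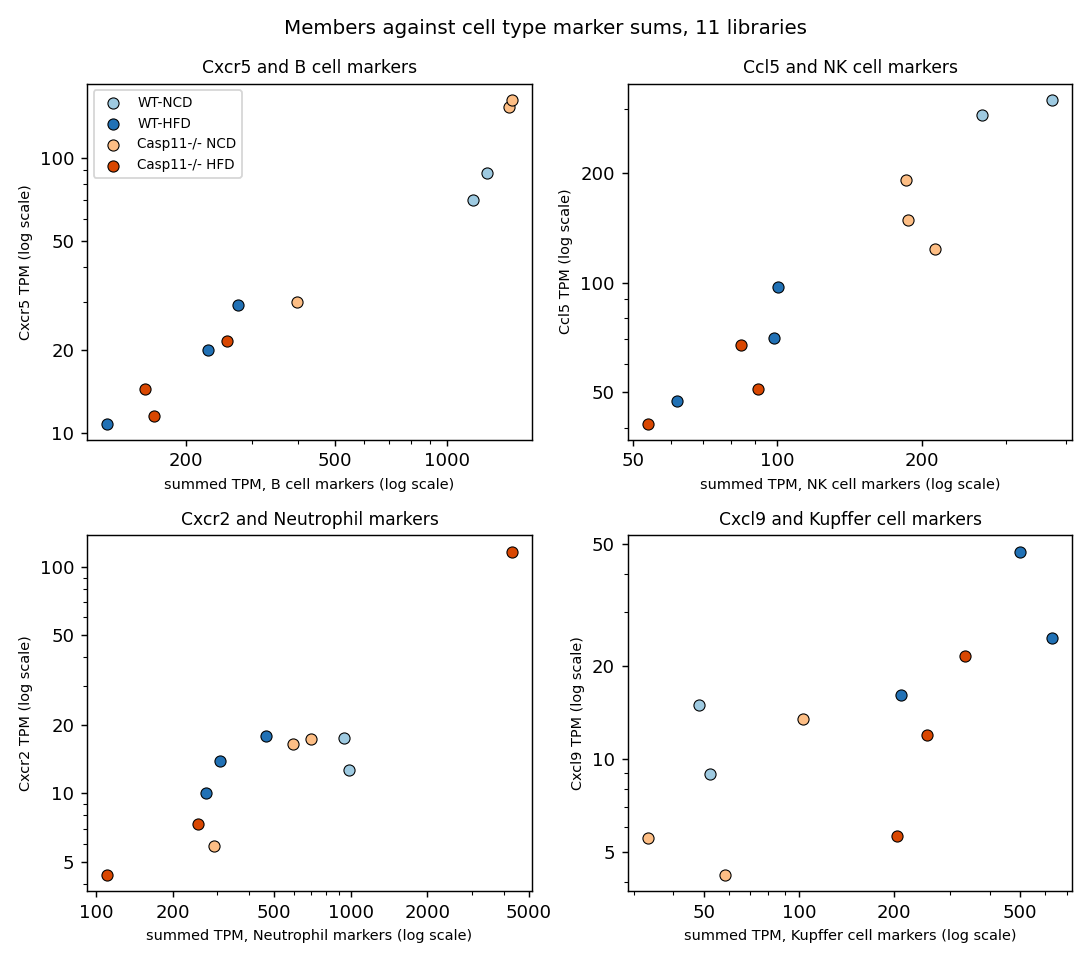
TPM of a member (y axis) against the summed TPM of a fixed marker list (x axis), both on log scales, in the 11 libraries fitted, coloured by group. Cxcr5 and Ccl5 rise with the B cell and NK cell sums across both diets, Cxcr2 is highest (117 TPM) in the library with the highest neutrophil sum (4292), and at Kupffer cell sums of 33.3 to 631 Cxcl9 runs from 4.19 to 47.2 TPM.

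Receptors of effector and tissue-resident lymphocytes did not reach the threshold. Cxcr3, the receptor for the interferon-induced ligands on Th1 and CD8 T cells, was at 33.7 and 44.5 TPM in WT-NCD, at 11.3 to 33.6 TPM in WT-HFD and at 9.16 to 10.4 TPM in the libraries labelled Casp11-/- HFD. The libraries labelled Casp11-/- NCD were spread from 14.4 to 94.9 TPM. Its log2 fold change was -1.20 ± 0.43 (adjusted p = 0.053). Cxcr6, which marks liver-resident T and NKT cells, had a log2 fold change of -1.02 ± 0.42 (adjusted p = 0.083) and was highest in the same library, Casp11-/- NCD replicate 1 (97.0 TPM). Ccr9, the receptor for CCL25 on gut-homing lymphocytes and plasmacytoid dendritic cells, was also highest there (31.1 TPM), and its ligand Ccl25 was above the minimum in 4 libraries.

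The ligands of CXCR3 and CXCR6 had positive log2 fold changes, none of them called. Cxcl9, an interferon-γ-induced ligand made by macrophages and endothelium, was at 15.0 and 8.96 TPM on NCD in WT and at 24.6, 16.1 and 47.2 TPM on HFD in WT. With the Casp11-/- label the values were 4.19, 5.53 and 13.5 TPM on NCD and 12, 5.64 and 21.6 TPM on HFD. In WT all HFD libraries were above both NCD libraries, and with the Casp11-/- label the diets overlapped. The log2 fold change was 0.90 ± 0.41 (adjusted p = 0.11), it was 1.52 ± 0.39 after rescaling (adjusted p = 0.0621) and 1.61 with median-ratio scaling, where it was called (adjusted p = 0.0334).

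Cxcl10, which shares the receptor with Cxcl9, was at 14.5 and 12.3 TPM in WT-NCD, at 13.1, 17.3 and 43.2 TPM in WT-HFD, at 8.62, 8.23 and 32.1 TPM in Casp11-/- NCD and at 20.6, 8.89 and 44.7 TPM in Casp11-/- HFD. Replicate 3 was the highest library for Cxcl10 in every group but WT-NCD, and the log2 fold change of 0.61 ± 0.44 was not called (adjusted p = 0.29). Cxcl16, the membrane-bound ligand of CXCR6 on macrophages and endothelium, was at 9.06 and 8.12 TPM in WT-NCD, at 11.02, 4.72 and 18.9 TPM in WT-HFD, at 3.38, 4.10 and 14.5 TPM in Casp11-/- NCD and at 10.1, 5.40 and 14.6 TPM in Casp11-/- HFD. The diets overlapped throughout, and the log2 fold change was 0.39 ± 0.42 (adjusted p = 0.47).

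Ccl24 was the single member called higher. It encodes eotaxin-2, a ligand of CCR3 that attracts eosinophils and is made by alternatively activated and liver macrophages. Ccl24 is among the macrophage markers that the study chose on these samples, so its direction here is not independent evidence. It was at the minimum in both WT-NCD libraries and in Casp11-/- NCD replicates 1 and 2, and at 1.80 TPM in Casp11-/- NCD replicate 3. All 6 HFD libraries were above the minimum, at 11.2, 2.19 and 3.96 TPM in WT-HFD and at 2.73, 1.26 and 4.03 TPM in the libraries labelled Casp11-/- HFD. Ccl24 thus entered the test only through the diet in which it was high, since 1 NCD library does not meet the filter of 3 libraries. The log2 fold change of 1.08 ± 0.32 (adjusted p = 0.0261) depends on the minimum and the pseudocount. It was not called after rescaling (0.95 ± 0.29, adjusted p = 0.103) and not with all 12 libraries, of which WT-NCD replicate 3 listed 9.71 TPM.

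The receptor Ccr3 was above the minimum in only 4 of the 11 libraries, with 7.81 TPM in Casp11-/- NCD replicate 1 and at most 1.98 TPM elsewhere. Its other ligand Ccl11 was at the minimum in all 11 libraries. Ccr8, found on regulatory and Th2 cells, and its ligand Ccl1 were each above the minimum in 4 of the 11 libraries and reached 2.85 and 2.73 TPM.

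Kupffer cell markers rose in the same comparison, and 7 of 8 passed the test (6 after rescaling and 4 with all 12 libraries). Clec4f, Cd5l, Folr2 and Marco of this list are macrophage markers that the study reported as raised on HFD in these samples. Their direction is thus not independent evidence. The 8 markers summed to 33.3 to 103 TPM in NCD and to 205 to 631 TPM in HFD, and all 8 had a higher mean on HFD. Relative to that sum, Cxcl9 differed by -1.61 on the log2 scale (exact permutation p = 0.005, adjusted p = 0.0633 over the 19 pairs). No such ratio is read for Ccl24, which was at the minimum in 4 of 5 NCD libraries. Sinusoidal endothelial markers moved as well: Cdh5, Clec4g, Kdr and Oit3 rose, which is 4 of 6 (1 of 6 after rescaling and 0 with all 12 libraries), and the sums were 95.4 to 424 TPM in NCD and 196 to 1073 TPM in HFD, or 62.7 to 302 and 316 to 1151 after rescaling. The part of Kupffer and endothelial cells in the levels of Ccl24, Cxcl9 and Cxcl16 was not tested.

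The monocyte axis did not separate by diet. Ccr2 (chr9:124101950-124113557), which lets inflammatory monocytes leave the bone marrow, was at 43.4 and 130 TPM on NCD in WT and at 44.7, 62.6 and 81.9 TPM on HFD in WT. It was at 60.4, 21.0 and 172 TPM in Casp11-/- NCD and at 28.6, 73.3 and 18.8 TPM in Casp11-/- HFD. The 4 groups overlapped, the log2 fold change was -0.55 ± 0.47 (adjusted p = 0.37), and its sign turned on rescaling (0.13) and with all 12 libraries (0.17). Ccl2, its main ligand, was at 11.5 TPM in WT-NCD replicate 2 and between 1.01 and 3.31 TPM elsewhere, and Ccl12 was at the minimum in all 11 libraries. Cx3cr1, which marks patrolling monocytes and some resident macrophages, was between 6.60 and 40.6 TPM in 10 libraries and at 104.9 TPM in Casp11-/- NCD replicate 3, with a log2 fold change of -0.97 ± 0.48 (adjusted p = 0.14). Cx3cl1, its ligand, did not exceed 3.28 TPM.

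**Figure D4:**
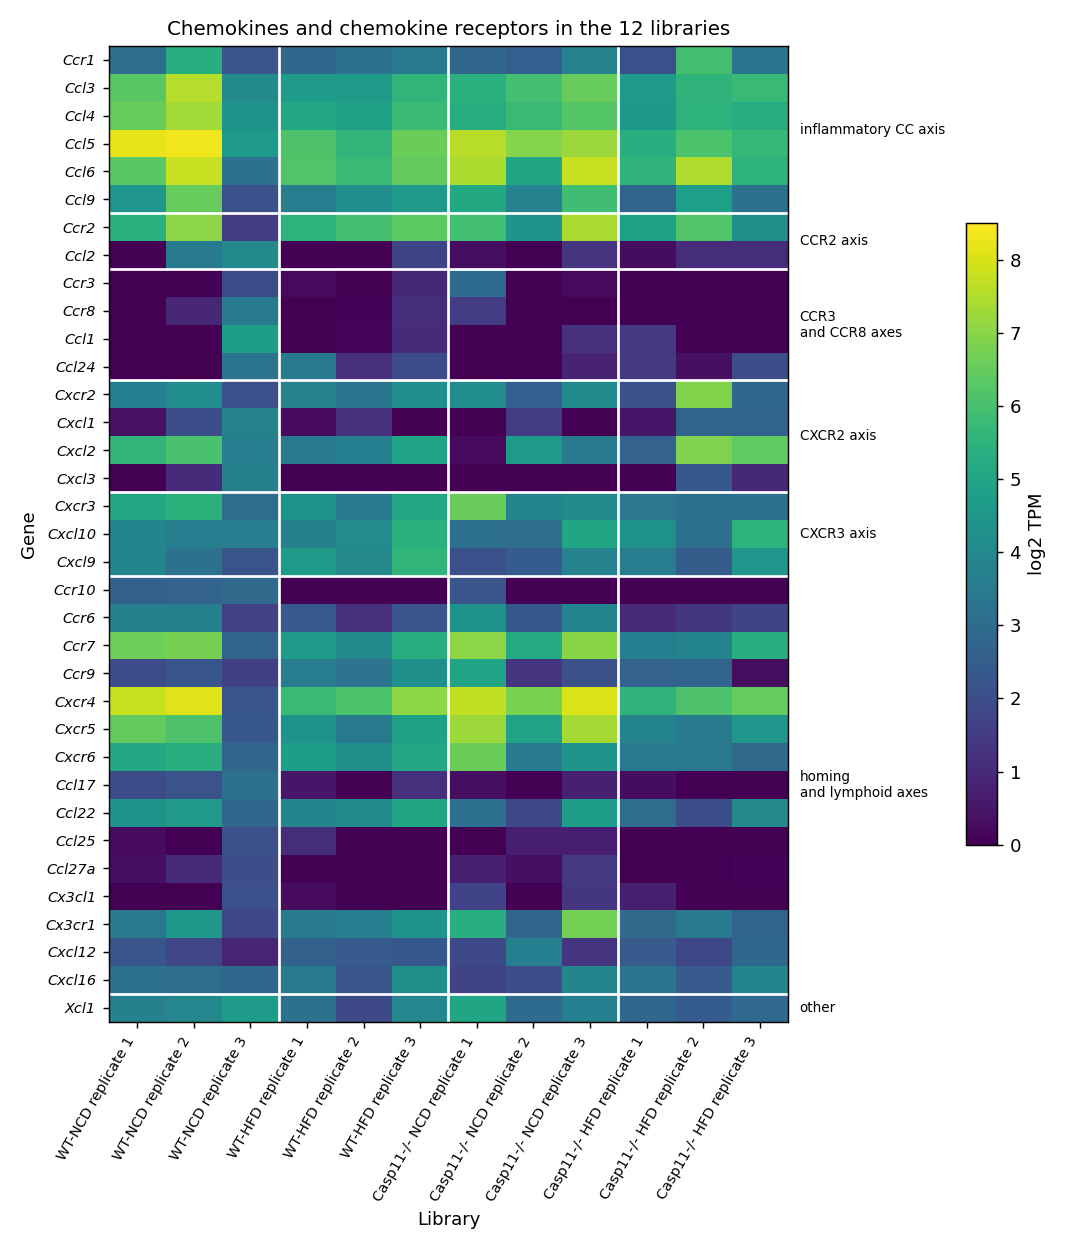
Log2 TPM (colour, 0 is close to the minimum) of 35 members (rows, grouped by axis) in all 12 libraries (columns, grouped by genotype and diet). WT-NCD replicate 3 holds low values across the rows that are high elsewhere, Casp11-/- HFD replicate 2 stands out in Cxcr2, Ccr1 and Cxcl2, and Cxcr5, Ccr7, Cxcr4 and Ccl5 are brightest in the NCD columns.

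The axis of CXCR2, the neutrophil receptor, stood out in single libraries. Cxcr2 (chr1:74153989-74161246) was between 4.35 and 18.02 TPM in 10 libraries and at 117 TPM in Casp11-/- HFD replicate 2. That library also held 4292 TPM of 8 neutrophil markers, against 111 to 985 TPM in the other 10. Its label is less certain than the others, since the header of its file abbreviates the genotype differently and Casp4 was not low. With that library the log2 fold change between diets was 0.14 ± 0.55 (adjusted p = 0.84), and without it -0.55 ± 0.42 (adjusted p = 0.31). Cxcr1 was above the minimum in 1 of the 11 libraries.

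Cxcl2, a neutrophil-attracting ligand made early by activated macrophages, was at 46.8 and 67.4 TPM on NCD in WT and at 11.6, 12.8 and 30.0 TPM on HFD in WT. With the Casp11-/- label the values were 1.18, 23.8 and 11.6 TPM on NCD and 6.36, 117 and 86.3 TPM on HFD. WT-HFD was below WT-NCD in every library, whereas 2 of the 3 libraries labelled Casp11-/- HFD were above all those labelled Casp11-/- NCD. The summed TPM of 8 immediate early genes, which cell isolation can induce, was 549 to 2515 in NCD and 264 to 1068 in HFD, and its part in the level of Cxcl2 was not tested. Cxcl1 was highest in the same 2 libraries labelled Casp11-/- HFD (6.64 and 6.50 TPM) and was between 1.01 and 4.15 TPM in the others. Cxcl3 was above the minimum in 4 libraries, at 5.09 and 1.95 TPM in these 2, at 2.02 TPM in WT-NCD replicate 2 and at 1.04 TPM in Casp11-/- NCD replicate 2.

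The upstream sequences of these 3 ligands and of Cxcl9 and Cxcl10 are shown because the 3 neutrophil ligands were high in the same libraries and the other 2 share a receptor. Each is the stretch of 170 bases just before the gene's start in the RefSeq table for GRCm38.p6, and capitals mark each match of GGNNNTTCC on either strand, a short form of the site of NF-κB.
Cxcl1: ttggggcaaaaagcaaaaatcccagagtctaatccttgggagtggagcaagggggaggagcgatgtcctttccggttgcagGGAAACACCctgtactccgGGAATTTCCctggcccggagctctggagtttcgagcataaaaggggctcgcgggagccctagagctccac
Cxcl2: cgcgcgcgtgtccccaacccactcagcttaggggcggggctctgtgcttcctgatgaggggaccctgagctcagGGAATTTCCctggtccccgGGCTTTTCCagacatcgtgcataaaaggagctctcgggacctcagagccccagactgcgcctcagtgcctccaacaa
Cxcl3: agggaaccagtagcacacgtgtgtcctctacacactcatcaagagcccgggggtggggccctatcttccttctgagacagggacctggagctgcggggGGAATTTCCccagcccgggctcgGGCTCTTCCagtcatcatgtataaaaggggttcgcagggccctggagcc
Cxcl9: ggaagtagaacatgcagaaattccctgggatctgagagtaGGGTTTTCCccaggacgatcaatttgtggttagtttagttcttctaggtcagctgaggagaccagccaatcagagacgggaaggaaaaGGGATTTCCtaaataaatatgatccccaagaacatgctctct
Cxcl10: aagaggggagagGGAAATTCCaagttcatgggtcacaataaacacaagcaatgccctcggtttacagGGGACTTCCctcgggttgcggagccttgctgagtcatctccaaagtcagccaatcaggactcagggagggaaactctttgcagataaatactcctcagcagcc
They lie at chr5:90891075-90891244, chr5:90903729-90903898 and chr5:90785931-90786100 on the forward strand, and at chr5:92328080-92328249 and chr5:92348890-92349059 on the reverse strand. All 5 stretches hold 2 matches, and the 3 neutrophil ligands share GGAATTTCC. Of the 36 members, 27 had an entry in the table, with 31 windows of 300 bases (250 before and 50 after a start), and 11 of these windows (35.5%) held a match, against 18.5% of all 32851 windows. A match describes the letters only. No entry was used for Ccl2, Ccl4, Ccl5, Ccl24, Ccr7, Ccr10, Cxcl16 or Cxcr5.

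Within each genotype fewer members were called. In WT mice, 2 of 36 members fell and 0 rose, against 2.18% of all genes called in either direction. These were Ccl5 (log2 fold change -2.12 ± 0.52, adjusted p = 0.0241) and Ccr10 (-1.87 ± 0.37, adjusted p = 0.00378). Ccr10 was at the minimum in every HFD library and entered the test only through NCD libraries in which it was high. After rescaling, limma called neither in WT (adjusted p = 0.0622 and 0.0613). The only member called there was Ccl17 (-0.47 ± 0.07, adjusted p = 0.0408), with most of its values at the common minimum. Between the libraries labelled Casp11-/-, 1 of 36 fell, which was Cxcr5 (-2.49 ± 0.56, adjusted p = 0.028), against 1.1% of all genes. A call in only 1 genotype does not show that the genotypes differed. The log2 fold changes of Ccl5, Ccr10 and Cxcr5 on TPM as deposited were negative in both. Cxcr5 changed by -2.03 ± 0.63 in WT (adjusted p = 0.11), and Ccl5 by -1.52 ± 0.46 with the Casp11-/- label (adjusted p = 0.099).

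The interaction of diet and genotype asked whether HFD acted differently in the libraries labelled Casp11-/-. With limma 0 of 36 members were called, against 0.00557% of all genes, and 6 members had an unadjusted p under 0.05, of which 5 had the higher diet difference with the Casp11-/- label, against 2.6% of all genes at that p in either direction. The largest was Cxcl2, whose diet difference on the log2 scale was -1.71 ± 0.90 in WT and 2.27 ± 0.81 with the Casp11-/- label, which differ by 3.97 ± 1.21 (unadjusted p = 0.0031, adjusted p = 1). Cxcl1 and Cxcl3 had interaction terms of 1.57 ± 0.65 and 1.01 ± 0.43 in the same direction, and neither was called. Ccr9 had the term of opposite sign, -2.14 ± 0.97, and Ccr10 and Ccl17 had terms of 1.37 ± 0.50 and 0.92 ± 0.39. After rescaling, only 2 members had an unadjusted p under 0.05 in limma, Ccr10 and Ccl17, beside 678 of all 17950 genes. The unadjusted p was then 0.068 for Cxcl2, 0.22 for Cxcl1, 0.25 for Cxcl3 and 0.08 for Ccr9. Casp11-/- HFD replicate 2, whose label is less certain, held the highest Cxcl1, Cxcl2 and Cxcl3 values of the libraries fitted. Ccl17 was called with median-ratio scaling (log2 0.54, adjusted p = 0.00382) and on the rescaled values without WT-HFD replicate 3 (log2 0.55, adjusted p = 0.008), where most of its values lie at the common minimum.

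**Figure D5:**
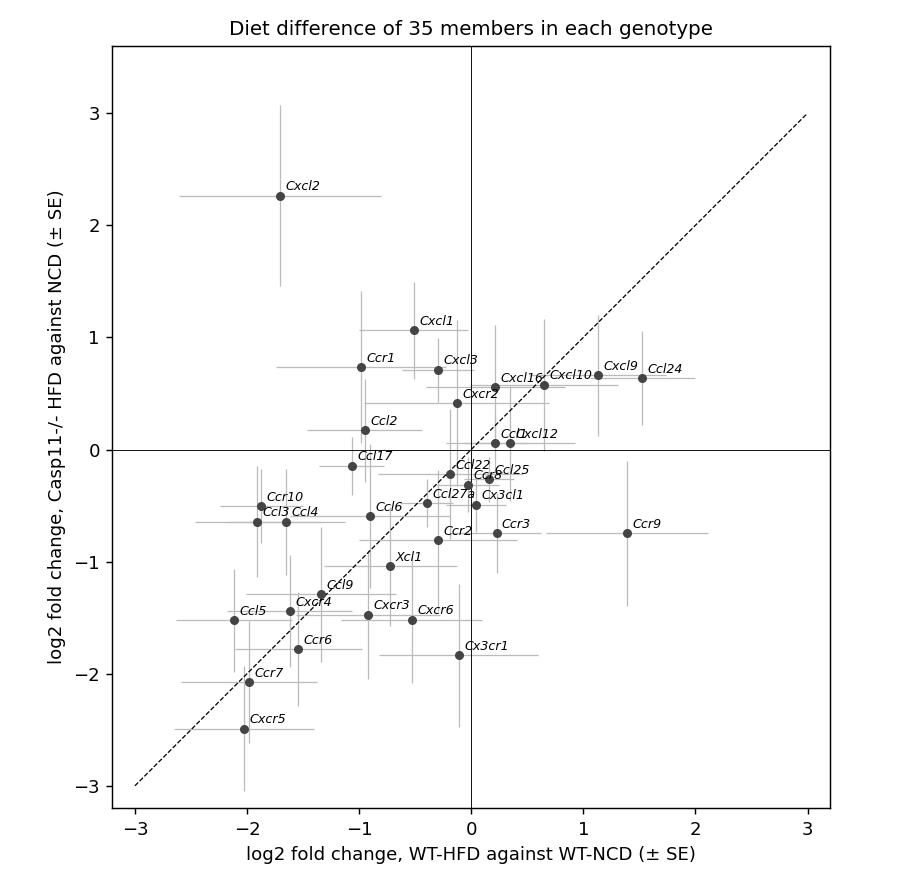
Log2 fold change of HFD against NCD, with SE, in WT (x axis) and in the libraries labelled Casp11-/- (y axis) for 35 members, with the line of equal change dashed. Cxcr5, Ccr7, Ccr6, Cxcr4 and Ccl5 lie low on both axes, and Cxcl2 lies far from the line, at -1.71 in WT and 2.27 with the Casp11-/- label.

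Genotypes were also compared within a diet. On NCD, limma called 0 of 36 members between Casp11-/- and WT, against 0.0557% of all genes. At an unadjusted p under 0.05 stood 5 members (1 higher, 4 lower with the Casp11-/- label), beside 581 of all 17950 genes (247 higher, 334 lower). The smallest p was that of Ccl17 (log2 fold change -1.19 ± 0.29, adjusted p = 0.19), and the log2 fold change of Cxcl2 was -2.70 ± 0.90 (adjusted p = 0.59). On HFD, 0 members and 0% of all genes were called. An unadjusted p under 0.05 was found for 5 members (2 higher and 3 lower), beside 135 of all 17950 genes (71 higher and 64 lower). Cxcl1 and Cxcl3 were higher with the Casp11-/- label by 1.10 ± 0.43 and 0.72 ± 0.28, and Ccr9, Cxcr6 and Cxcl9 had log2 fold changes of -1.51 ± 0.65, -1.36 ± 0.56 and -1.15 ± 0.54, each with an adjusted p of 1. None of these differences passed the adjusted threshold.

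Other genes of the chemokine system were counted from fixed lists. Of 11 further receptors and ligands (Ackr1 to Ackr4, Ccrl2, Xcr1, Cmklr1, Pf4, Ppbp, Cklf and Mif), 10 were tested, and 1 rose and 0 fell between the diets. The gene that rose was Ppbp, a platelet chemokine (log2 fold change 1.28 ± 0.38, adjusted p = 0.0289). After rescaling, Pf4, the other platelet chemokine (1.01 ± 0.19), and the scavenger receptor Ackr2 (1.0 ± 0.22) were called as well. Of 24 genes that act downstream of the receptors, such as Gnai2, Dock2 and Rac2, 15 fell and 0 rose, beside 17.3% of all genes called lower, and their median log2 fold change was -1.25. After rescaling 1 fell and 0 rose, beside 3.21% and 2.43% of all genes, and the median was -0.57. With all 12 libraries limma called 0 of the 24.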

How the data were processed

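The deposited values are a score in TPM per gene and library, which the authors computed in Qlucore Omics Explorer after aligning single-end reads of stranded, random-primed total RNA libraries to mm10 with STAR. Every file has the same lowest value, 1.006955532, and the step that set it is not given in the sources used here. No read counts are given, so no counting interval is possible. Members and gene lists were chosen with earlier results of these data known. One member and 1 cell type marker are not reported here; the member is included in the counts, and the marker was left out of its list. All other members above the minimum in 3 libraries are named, and values per library are given for members called in any of the 6 comparisons, those of smallest p in each direction and the 8 of highest median; those of other members were chosen after their values were seen. Log2(TPM + 1) of genes above the minimum in at least 3 of 11 libraries was fitted with limma 3.58.1 (R 4.3.3), with a trend and a shared spread for 4 groups. Tests were two-sided, with Benjamini-Hochberg adjustment over all genes and a threshold of 0.05. The limma steps were checked on simulated data. Alternatives were all 12 libraries, 2 other scalings (a common total of protein-coding genes, and median ratios), a pseudocount of 0.1, 2 other filters, a spread from the groups compared, no trend, a replicate block and each library left out. In both scalings values were raised here to a common minimum, 1.63 and 1.79 TPM. Leaving out each library on the rescaled values, in all 6 comparisons, was added after seeing the data. Ratios to marker lists were compared with exact permutation tests within genotypes. Tables were handled in Python 3.11.15 with pandas 2.3.3, numpy 2.4.6 and matplotlib 3.10.9. Gene positions are from GENCODE vM21.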

Additional observations from a re-analysis of the deposited data

Results flagged for a closer look

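WT-NCD replicate 3, which is outside the 11 libraries compared, listed values above the minimum for all 19 genes that matched the symbol rule but did not reach 3 of the 11 libraries, and 11 of these 19 were at the minimum in all 11. The 19 genes were between 3.12 and 47.2 TPM in that library, the highest being Ccl26, and did not exceed 3.71 TPM in any of the others. No difference between the genotypes in the response of a member to diet passed the test of the interaction, except Ccl17 with median-ratio scaling and on the rescaled values without WT-HFD replicate 3.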

How the results depend on the processing

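For HFD against NCD averaged over both genotypes, 11 members were called; the number was 0 with all 12 libraries, 6 with protein-coding genes rescaled and 7 with genes above the minimum in at least 1 library, and it stayed within 1.5 times of 11 under the other settings. Leaving out 1 library gave 4 to 18 calls, namely 4 if WT-NCD replicate 2 was dropped, 6 for WT-HFD replicate 1, 7 for WT-NCD replicate 1, WT-HFD replicate 2, Casp11-/- NCD replicate 1 or Casp11-/- HFD replicate 1, and 18 for Casp11-/- NCD replicate 2. On the rescaled values the same step gave 0 to 7 calls, with 0 without either WT-NCD replicate 1 or 2. In WT, 2 members were called, Ccl5 and Ccr10. The number was 0 with all 12 libraries or the filter of 1 library. It was 1 without the trend or with the filter of every library, and 1 after rescaling, which was Ccl17. The spread of the 2 groups gave 13, and 1 library left out gave 0 to 9, 9 being without Casp11-/- NCD replicate 2. Between the libraries labelled Casp11-/-, 1 was called, and the number was 0 under both scalings, with all 12 libraries, without the trend or with the filter of 1 library, 2 with a pseudocount of 0.1, 3 with the spread of the 2 groups, 5 with the filter of every library and 0 to 16 with 1 library left out, 16 being without Casp11-/- NCD replicate 2. Median-ratio scaling called 1 member in the interaction and 1 between genotypes on NCD, both Ccl17. On the rescaled values Ccl17 was also called in the interaction without WT-HFD replicate 3, and on NCD without WT-HFD replicate 3 or Casp11-/- NCD replicate 1. All other settings gave 0 there, and every setting gave 0 between genotypes on HFD. Over all genes, the averaged comparison called 192 higher and 3097 lower, against 8 and 100 with all 12 libraries, 437 and 577 after rescaling, 873 and 1025 with median ratios, 46 and 931 with the filter of 1 library, and 326 and 6383 with the replicate block. With 1 library left out these ran from 38 and 526 (WT-NCD replicate 2) to 435 and 8180 (Casp11-/- NCD replicate 2). Deviations of same-numbered libraries correlated at r of -0.33 to 0.47, positive among the 3 pairs of replicate 3 (0.25 to 0.47) but not in every pair, so the numbers were not taken to pair the samples; 6 of 11 libraries correlated best with their own number. With the replicate block, 14 members were called in the averaged comparison, 9 in WT and 5 with the Casp11-/- label. Ccl24, Cxcr4, Ccl3, Ccl4 and Ccl9 lost their call after rescaling, with the cause not tested. Of the uncalled members with values per library, Ccr2 turned sign with all 12 libraries (0.17) and both scalings (0.13 and 0.23), Ccl6 with median-ratio scaling (0.042), and Cxcl3 with all 12 libraries (-0.21) and without Casp11-/- HFD replicate 2 (-0.013; -0.013 to 0.39 with 1 library left out). Cxcl2 (0.28) was lowest at -0.22, with Casp11-/- NCD replicate 1 dropped, and highest at 0.91, with Casp11-/- HFD replicate 1 dropped. In all, 12 of the 25 uncalled members and 0 of the 11 called turned sign with 1 library left out. The minimum of the files limits every member whose level is near 1 TPM.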
